A study of Bos taurus with 2 samples.

Results

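White blood cells of the marrow use a set of 9 genes that were followed through the CpG methylation of 2 samples of cattle bone: PTPRC, LCP1, SPI1, RUNX1, MPO, ELANE, CSF3R, CD79A and CD3E, that is 9 of 21162 protein-coding genes placed on chromosomes 1 to 29 and X. They were chosen by name, with earlier results of these data known, by a rule that used no methylation value. Both samples are labelled as bone of female Holstein cattle, with no age or treatment given, and form a single group. Neither the labels nor the methods say whether they came from 1 animal or 2, or whether marrow was left in the bone, and each SD is therefore the spread of these samples, not of animals. Whole-genome bisulfite sequencing (WGBS) turns unmethylated cytosines into thymines on reading, and the authors deposited, for every CpG cytosine, the number of methylated and unmethylated calls.

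Bone is a mixture of matrix-forming cells and, where marrow remains, of blood-forming cells. Promoters rich in CpG are unmethylated in most cell types, whereas the promoters of many genes that only blood cells use are unmethylated in blood cells and methylated elsewhere. In DNA from a mixture, the methylation level of such a promoter therefore lies between both states, and its unmethylated share is the largest share of DNA that can come from cells without methylation there. A level says nothing about which cells gave which calls.

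Sample 1 held 462047525 calls on chromosomes 1 to 29 and X and sample 2 held 406703424, or 17.0 and 15 calls per CpG site on average. The weighted level, the methylated calls over all calls, was 72.3% in sample 1 and 58.7% in sample 2, a difference of 13.6 percentage points that stands behind every comparison between them. The gene annotation at hand was of ARS-UCD2.0, while the labels' processing notes name ARS-UCD1.2 and the methods name UMD3.1.1, so the placement of genes was checked on the counts. Within 500 bp of gene ends the level was 24.2% and 29.5%, against 67.8% and 57.1% at 4000 to 5000 bp outside them, and it was lower near the ends in both samples on 30 of 30 chromosomes. The annotation gave no strand. The end at which each of the 9 genes starts was inferred from the order of its neighbours, compared with the known order in human.

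Most of the 9 starts were partly methylated. In the promoter, from 1000 bp before to 500 bp after the start, 6 of 9 genes in sample 1 and 7 of 9 in sample 2 had a level between 20 and 60%. Over all 41042 ends of protein-coding genes with at least 20 calls in each sample, 12.01% and 34.5% lay in that range, but those ends include gene ends that are no starts. The median of the 9 promoters was 34.3% in sample 1 and 32.6% in sample 2, against 70.0% and 51.9% over all gene ends. LCP1 was the lowest, at 5.77% ± 1.09 (SD, n = 2), and CD3E the highest, at 77.4% ± 11.9. Between them, CD79A, ELANE, RUNX1, MPO, PTPRC and SPI1 followed each other from 27.4% to 39.8% with SDs of 3.49 to 7.36, and the sample values of any neighbours in that order overlapped. CSF3R came next at 65.7% ± 8.64, with both samples above those of SPI1, while its values overlapped with those of CD3E. Both values of LCP1 were under those of every other gene.

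**Figure D1:**
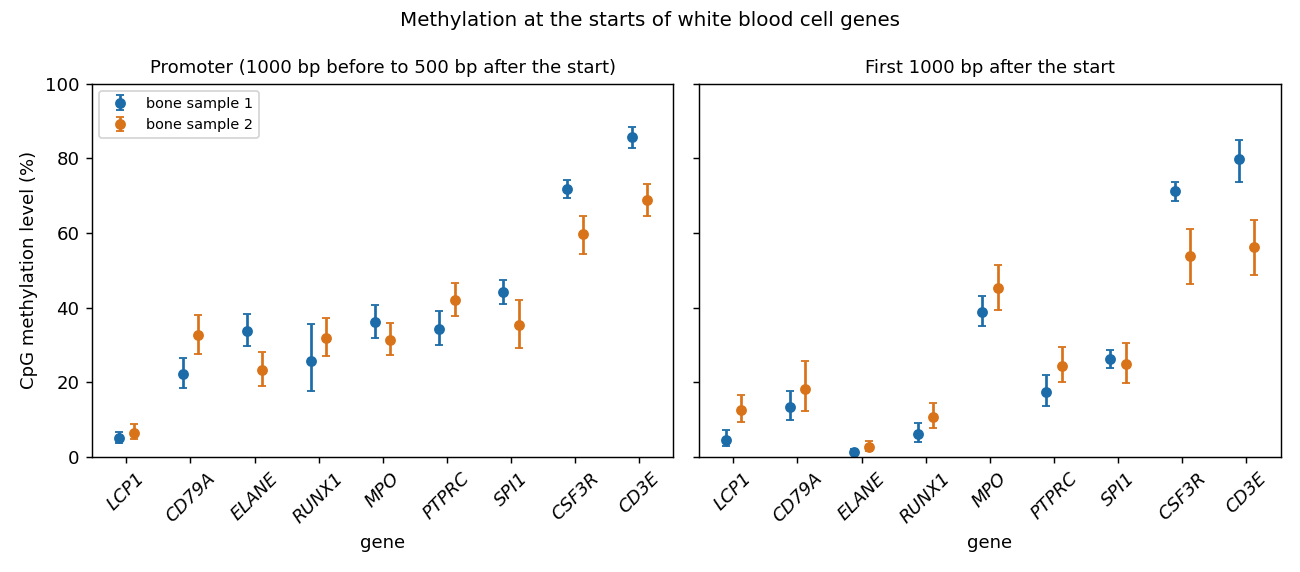
CpG methylation level (%) of the 9 white blood cell genes in both bone samples, in the promoter (left) and in the first 1000 bp after the start (right). Points are weighted levels of 1 sample each and bars are 95% Wilson intervals, which cover counting error only. LCP1 is at or under 12.5% in both panels, CD3E is the highest in the left panel, and ELANE drops to 1.24% and 2.59% on the right.

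PTPRC encodes CD45, the surface phosphatase that all nucleated white blood cells carry. Its promoter (chr16:77539606-77541086, from the first to the last CpG in the coordinates of the deposited counts) held 23 CpG sites. Its level was 34.3% of 417 calls in sample 1 (95% Wilson interval 29.9 to 39.0%) and 42.1% of 480 calls in sample 2 (37.7 to 46.5%), a mean of 38.2% ± 5.51. The sample with the lower genome-wide level thus had the higher level here. The kb before the start was at 63.5% and 58.3%, and the first kb after it at 17.5% and 24.5%. By single sites the fall lay before the start. The site at -473 bp was at 75% of 4 calls and 54.5% of 22 calls. That at -216 bp was at 25% of 8 calls and 17.4% of 23 calls. The window from 1 to 2 kb was at 8.33% and 26.7%, the first of these on 36 calls only. Of the sites with 10 or more calls per sample, the lowest by the mean level, at chr16:77540758 and 155 bp after the start, was methylated in 12.9% of 31 calls and 13.6% of 22 calls.

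LCP1 encodes L-plastin, an actin-bundling protein of white blood cells. Its promoter (chr12:16311816-16313083, 67 CpG sites) was almost unmethylated in both samples, with a level of 5% in 900 calls (3.76 to 6.62%) and 6.54% of 612 calls (4.84 to 8.78%). No methylated call was found at 6 of its sites with 10 or more calls per sample. At one of them, chr12:16311979, 313 bp after the start, these were 10 and 17 calls, which allows a level of up to 30% and 17.6%. An annotated end of the neighbouring gene LRRC63 lies within the kb before the start of LCP1, which was at 6.62% and 7.94%, so the level of LCP1 cannot be told apart from that of its neighbour. The first kb after the start was at 4.65% and 12.5%, and the low stretch ended there, with 92.6% of 27 calls and 67.7% of 62 calls in the next kb.

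SPI1 encodes PU.1, the transcription factor that myeloid cells and B cells need to form. Its promoter (chr15:77217277-77218664, 51 CpG sites) was at 44.2% of 932 calls in sample 1 (41.0 to 47.4%) and 35.4% of 212 calls in sample 2 (29.3 to 42.0%). In sample 1, 270 of these calls came from 2 sites that belong to the 0.1% with the most calls in the genome. Without them the promoter was at 28.1% and 27.5%. The first kb after the start, the lowest window within 10 kb, was at 26.1% of 1325 calls and 24.8% of 238 calls. Without those 2 sites, and in the first kb, the samples were thus close to each other. Another choice of sites moved the promoter the other way. When only sites read 5 times or more in both samples were kept, it was at 64.3% in sample 1 and 44.3% in sample 2. The level of SPI1 and the gap between the samples thus depended on which sites were counted. Only 3 sites of this promoter had 10 or more calls per sample, the lowest being chr15:77218308 at 48.1% of 77 calls and 18.2% of 11 calls.

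RUNX1 encodes a transcription factor without which blood stem cells do not form, and it is known to have a distal and a proximal promoter. At its outermost start (chr1:147244270-147245710, 18 CpG sites) the level was 25.6% in sample 1 (17.5 to 35.7%) and 31.9% in sample 2 (27.0 to 37.2%). The first rested on 86 calls, the fewest of any of the 9 promoters, and no site there had 10 calls in each sample. The first kb after the start was lower, at 6.09% and 10.6%, and the kb after that lower still, at 2.14% of 1542 calls and 4.83% of 435 calls. A region far inside the gene, 171 to 174 kb from the start, was the least methylated by the mean of both samples: its 3 windows ran from 0.461 to 0.736% in sample 1 and from 0.350 to 0.889% in sample 2. The next window, to 175 kb, was at 2.99% and 17.1%, and one at 28 to 29 kb at 2.82% and 5.96%. In all, 15 of 288 windows in sample 1 and 10 in sample 2 were under 20%, the most among the 9 genes, in the longest of them.

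MPO, ELANE and CSF3R belong to the granulocyte line. MPO encodes myeloperoxidase, the peroxidase of neutrophil granules. Its promoter (chr19:9258278-9259721, 38 CpG sites) was at 36.3% of 455 calls (32.0 to 40.8%) and 31.3% of 450 calls (27.2 to 35.8%), a mean of 33.8% ± 3.49. The lowest window lay further in, 1 to 2 kb after the start, at 16.7% of 1597 calls and 13.8% of 436 calls, close to each other in both samples. At the site chr19:9259539, at -784 bp from the start, 9.52% of 21 calls and 12.5% of 16 calls were methylated.

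ELANE encodes neutrophil elastase, a protease of the same granules, and lies beside the genes of the related proteins AZU1 and PRTN3. Its promoter (chr7:43410367-43411820, 45 CpG sites) was at 33.8% of 462 calls (29.6 to 38.2%) and 23.4% of 334 calls (19.1 to 28.2%). This mean joined a methylated and an unmethylated stretch. The kb before the start was at 70.1% and 42.3%, and the first kb after it, dense in CpG with 80 sites, at 1.24% of 1208 calls and 2.59% of 541 calls. Sites from -65 to 290 bp from the start had at most 2 calls each in sample 1 and up to 10 in sample 2. The start of ELANE itself was thus hardly read in sample 1, and the value of that kb comes mostly from sites further in. The lowest promoter site with 10 or more calls per sample, chr7:43410543, lay in the methylated stretch, at 47.6% of 21 calls and 25% of 12 calls. A second window almost without methylation lay 3 to 2 kb before the start, at 1.79% and 1.60%. The promoter level of ELANE therefore depended on where its borders were set more than on the sample.

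CSF3R encodes the receptor for granulocyte colony-stimulating factor, on which neutrophil formation depends. At its outermost annotated end (chr3:109409253-109410609, 32 CpG sites) it was mostly methylated, at 71.8% of 1253 calls (69.3 to 74.2%) and 59.6% of 364 calls (54.5 to 64.5%), close to the genome-wide levels of both samples. Its lowest site, chr3:109409619, was at 25% and 8.33% of 12 calls each. Lower windows followed inside the gene. The window from 1 to 2 kb was at 23.7% and 30.1%, that from 4 to 5 kb at 21.1% of 517 calls and 20.5% of 396 calls, and that from 5 to 6 kb at 31.1% and 31.7%. These 3 windows were close between the samples, whereas the kb before the start was at 65.8% and 61.3% and the first kb after it at 71.1% and 53.8%.

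CD79A and CD3E belong to the lymphocytes. CD79A encodes a signalling chain of the B cell receptor. Its promoter (chr18:51347922-51349307, 38 CpG sites) was at 22.2% of 392 calls (18.4 to 26.6%) and 32.6% of 307 calls (27.6 to 38.0%), a mean of 27.4% ± 7.34, the lowest after LCP1. The first kb after the start was at 13.3% and 18.1%. At the site chr18:51348410, at -36 bp from the start, none of 11 and none of 10 calls were methylated, which allows a level of up to 27.3% and 30%. The gene is short, and its far end, on the side of ARHGEF1, was low too, at 23.3% and 22.8%. A window 5 to 6 kb from the start, outside CD79A, was at 0.878% and 0.855%. An annotated end of ARHGEF1 lies 4 to 5 kb from the start, so the level of the far end cannot be told apart from that of the neighbour.

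CD3E encodes a chain of the T cell receptor complex. It showed the opposite: its promoter (chr15:29003594-29005067, 27 CpG sites) was methylated at 85.8% of 590 calls (82.7 to 88.4%) in sample 1 and 69.0% of 435 calls (64.5 to 73.1%) in sample 2. Of 19 sites with 10 or more calls per sample, 18 had a mean level over 60% and none was under 20%, the lowest being chr15:29003675 at 62.5% of 32 calls and 39.1% of 23 calls. Sites from -384 to 36 bp from the start, with 9 or fewer calls each in sample 1, are not among the 19. Those from -62 to 36 bp had at most 3 calls each in sample 1, and were at 44.4% to 63.6% in sample 2. The start of CD3E itself was thus hardly read in sample 1. None of its 19 windows with enough calls within 10 kb of the start was under 40% on average over both samples. The region at the far end of the gene, on the side of CD3D, was at 17.0% and 13.7%, with a window 11 to 12 kb from the start at 12.6% and 13.0%. Of the 9 genes, CD3E alone had a lower level at its far end than at its start in both samples, CD79A did so in sample 2 only, and the other 7 were lower at the start in both samples.

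**Figure D2:**
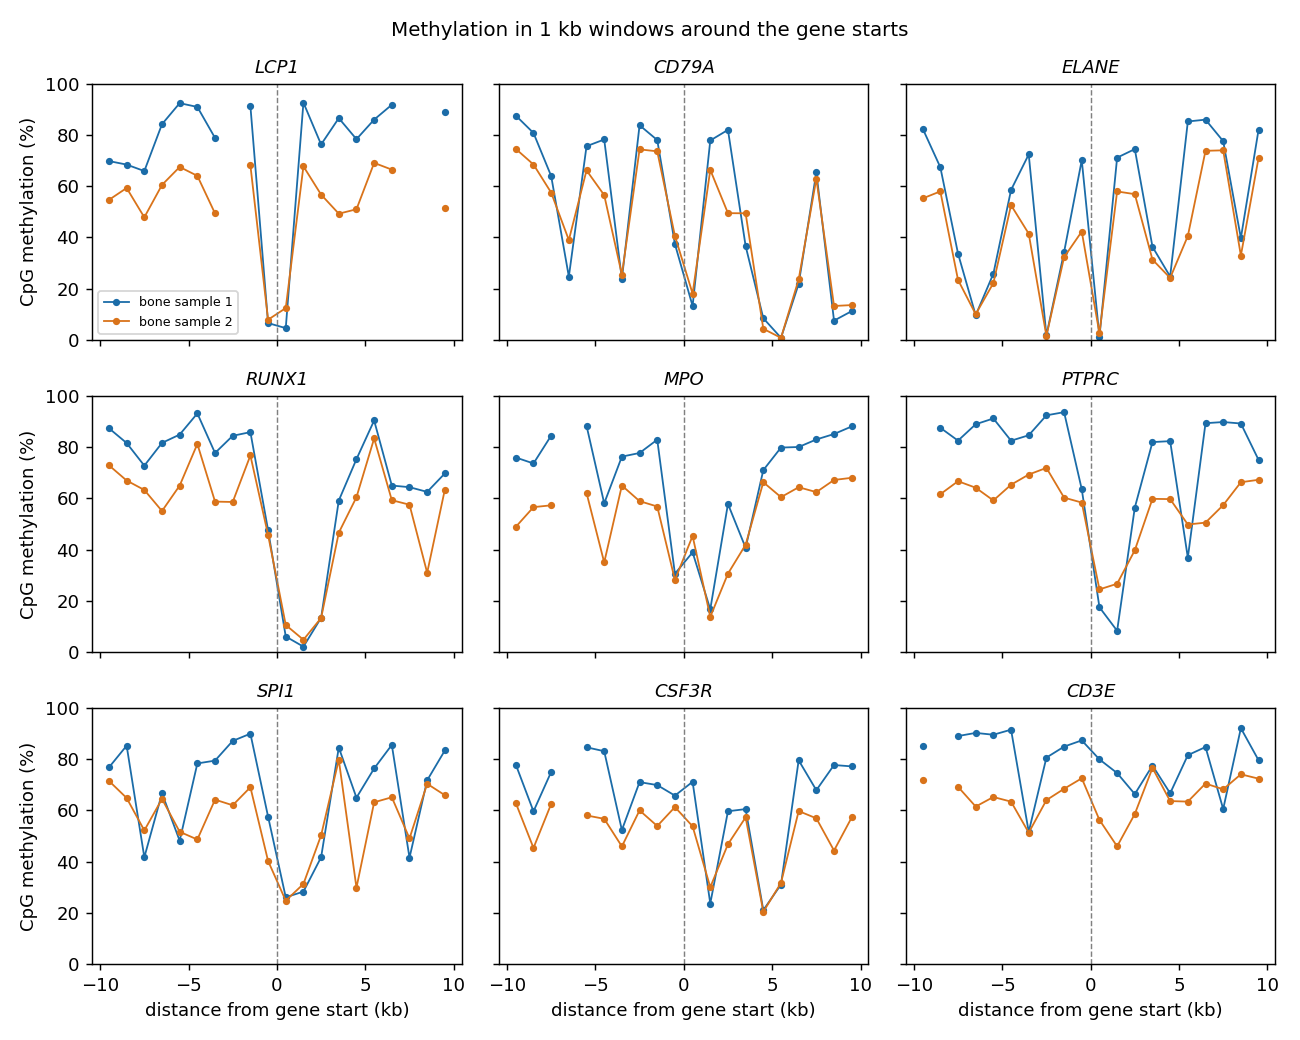
CpG methylation level (%) in 1 kb windows from 10 kb before to 10 kb after the start of each gene (dashed line), read along the gene, for both bone samples; windows under 20 calls in either sample are left out. A dip at or just after the start is seen in LCP1, RUNX1, PTPRC, SPI1, ELANE, CD79A and MPO, lower windows inside CSF3R, and no window under 40% near the start of CD3E. At the lowest windows of most genes the samples lie close together, while outside them sample 1 is mostly the higher.

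The bodies of the genes were methylated much as the genome was. Their median level was 66.8% in sample 1 and 57.1% in sample 2, and the promoter was lower than the body in both samples in 7 of 9 genes, all but CD3E and CSF3R. The body of PTPRC was at 80.6% and 61.6%, that of LCP1 at 79.6% and 57.1% and that of RUNX1 at 70.1% and 62.8%. ELANE had the lowest body in both samples, at 40.6% and 27.7%, and CD79A was at 65.4% and 55.9%. Bodies were counted from 500 bp after the start, so that of ELANE takes in part of its almost unmethylated first kb. The window of ELANE from 1 to 2 kb was at 71.1% and 58.0%. SPI1, MPO, CSF3R and CD3E had body levels of 60.8, 62.2, 66.8 and 74.5% in sample 1, and 59.2, 52.7, 49.4 and 64.1% in sample 2.

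The longer genes held stretches of low methylation far from their starts. In PTPRC, the window 19 to 20 kb from the start was at 6.31% of 396 calls and 16.3% of 288 calls, and that from 47 to 48 kb at 23.0% and 25.2%. In LCP1, the window 39 to 40 kb from the start was at 12.1% of 99 calls and 16.7% of 240 calls, and that from 44 to 45 kb at 22.8% and 25.2%. The medians over all windows of these genes were 84.1% and 64.0% for PTPRC and 83.5% and 58.4% for LCP1, so these windows lay far under the rest of their gene in both samples. Whether any annotated transcript starts there was not analysed here.

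**Figure D3:**
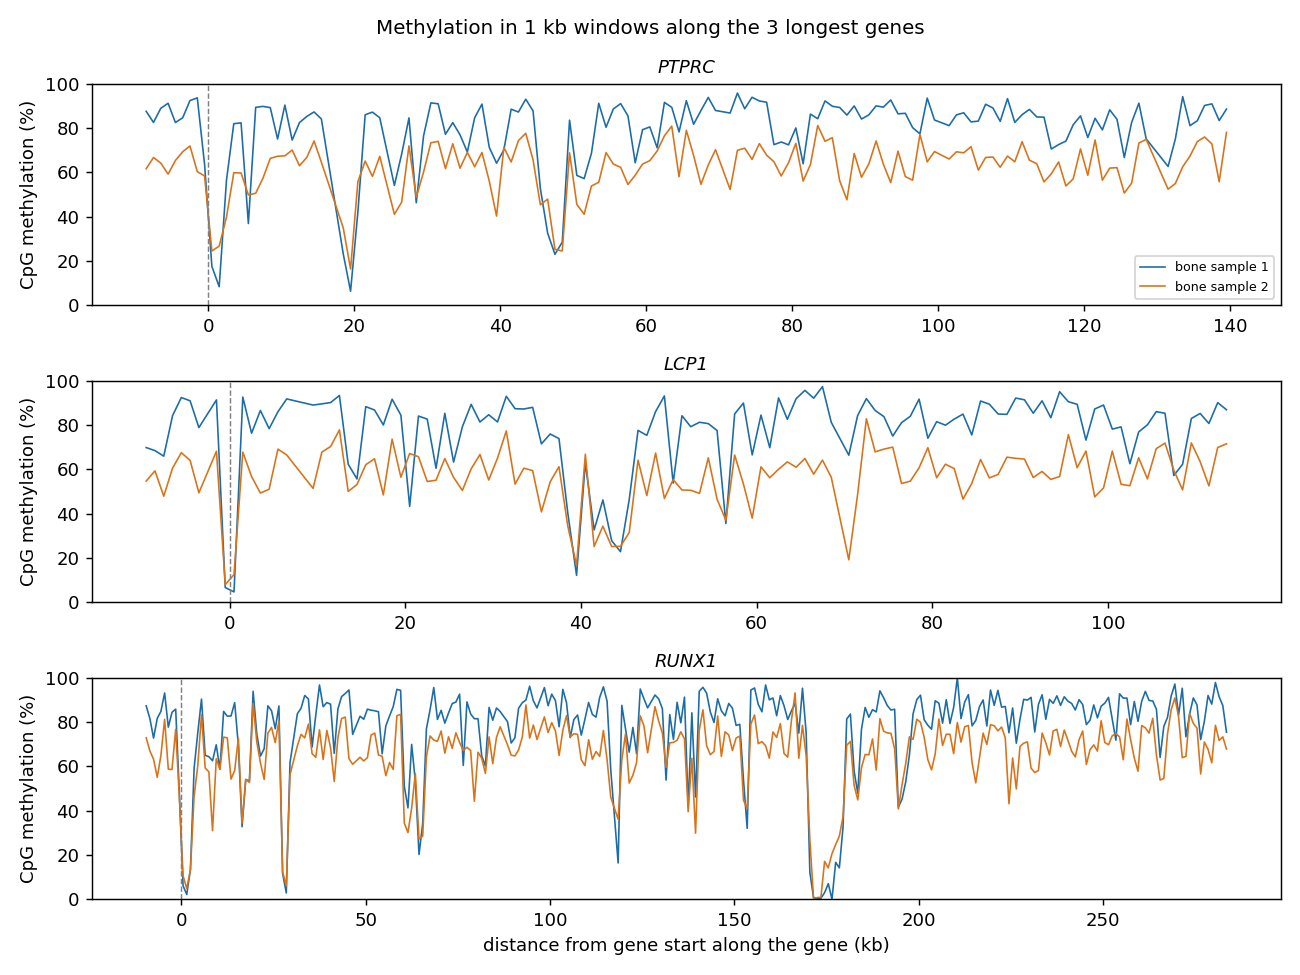
CpG methylation level (%) in 1 kb windows along PTPRC, LCP1 and RUNX1, against the distance from the gene start in kb, for both bone samples. Sharp dips recur at the same distances in both samples: at the start and at 19 to 20 and 47 to 49 kb in PTPRC, at 39 to 40 and 43 to 45 kb in LCP1, and at 28 to 29 and 171 to 174 kb in RUNX1.

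The samples were then compared at each start with Fisher's exact test (two-sided) of their calls, adjusted over all 41042 gene ends by the Benjamini-Hochberg method. This compares the calls of 2 libraries and not conditions, and calls on 1 read are not independent, so that the p-values are too small. Of the 9 promoters, 6 passed an adjusted p of 0.05, against 70.0% of all gene ends, so these genes differed about as often as any others. They were higher in sample 1 in CD3E (adjusted p from Fisher's exact test 9.44e-10), CSF3R (3.81e-05), ELANE (0.00289) and SPI1 (0.0311), and 54.7% of all gene ends passed in that direction. They were higher in sample 2 in CD79A (0.00446) and PTPRC (0.0289), and 15.3% of all gene ends passed in that direction. MPO, LCP1 and RUNX1 did not pass, with adjusted p-values of 0.157, 0.259 and 0.346. The differences that passed ran from 7.79 points in PTPRC to 16.8 in CD3E, so none reached 20 points. With promoters of 500 bp to each side the calls for PTPRC, SPI1 and ELANE were lost (adjusted p from Fisher's exact test 0.183, 0.644 and 0.360), and SPI1 and ELANE turned in direction. In the first kb after the start the calls for PTPRC, SPI1, CD79A and ELANE were lost (0.0580, 0.768, 0.308 and 0.102) with ELANE turned, while LCP1 passed (4.96e-04), higher in sample 2.

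When the same test was made against the odds ratio of all calls, 1.84, which stands for the genome-wide difference, 6 of 9 passed, against 48.7% of all gene ends, and only PTPRC, CD79A and CD3E passed both tests. Relative to that ratio 5 were higher in sample 2, a direction in which 27.9% of all gene ends passed: PTPRC (adjusted p from Fisher's exact test 1.19e-10), CD79A (5.75e-10), LCP1 (3.46e-04), RUNX1 (0.00197) and MPO (0.0161). CD3E was the higher in sample 1 (0.0309), a direction in which 20.9% of gene ends passed, and SPI1, ELANE and CSF3R did not pass, with adjusted p-values of 0.224, 0.674 and 0.761. Over all gene ends the split went from 22457 higher in sample 1 and 6261 in sample 2 to 8570 and 11435. The size of the difference between the samples was tied to the level itself. Sample 2 was the higher at 70.4% of gene ends with a mean under 20%, at 34.6% of those with a mean of 20 to 50%, and at 2.88% of those over 50%. Among the 9 genes it was the higher in 4, and all 4 had a mean under 50%. MPO, ELANE and SPI1 had a mean under 50% as well, and were higher in sample 1.

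The unmethylated share of each promoter set a limit on the share of DNA from cells that are unmethylated there. For PTPRC, which all white blood cells use, the limit was 65.7% of DNA in sample 1 (95% Wilson interval 61.0 to 70.1%) and 57.9% in sample 2 (53.5 to 62.3%). The limits were 63.7% and 68.7% for MPO, 66.2% and 76.6% for ELANE, 77.8% and 67.4% for CD79A, 55.8% and 64.6% for SPI1, and 74.4% and 68.1% for RUNX1. They were 95% and 93.5% for LCP1. CSF3R allowed 28.2% and 40.4%, and CD3E allowed the least, 14.2% of DNA in sample 1 and 31.0% in sample 2. The value of CD3E comes mostly from sites away from its start, as those at the start had few calls in sample 1. Both the limit of SPI1 and its share given below depended on which sites were kept. Without the 2 deep sites the level of SPI1 was 28.1% in sample 1 and 27.5% in sample 2, which raises the limit. Over sites read 5 times or more in both samples it was 64.3% and 44.3%, which lowers the limit. The order of the samples differed between genes: sample 1 had the higher limit for PTPRC, CD79A, RUNX1 and LCP1, and sample 2 for the other 5.

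These limits hold only for cells that are unmethylated over the whole promoter. For most of the genes they were higher in the first kb after the start, as given below. The shares themselves depend on how methylated the other DNA is. As one assumption, it was set to the median of both ends of 18 genes of the liver, skin, retina and brain, which was 79.5% in sample 1 and 60.1% in sample 2. The share of unmethylated DNA was then 56.8% and 29.9% for PTPRC, 54.4% and 47.8% for MPO, 57.5% and 61.1% for ELANE, 72.1% and 45.8% for CD79A, 44.4% and 41.1% for SPI1, and 67.8% and 47.0% for RUNX1. It was 93.7% and 89.1% for LCP1, 9.60% and 0.753% for CSF3R, and 0% in both samples for CD3E, whose level was above the assumed one. With other DNA set to the genome-wide level instead, CSF3R was at 0.672% and 0%. The values for CD79A of B cells and ELANE of granulocytes summed to more than all DNA in both samples, and those for CD79A and MPO in sample 1 only. All these sums rest on the assumed level. Methylation cannot tell a smaller share of white blood cells from white blood cells that carry more methylation at these sites.

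**Figure D4:**
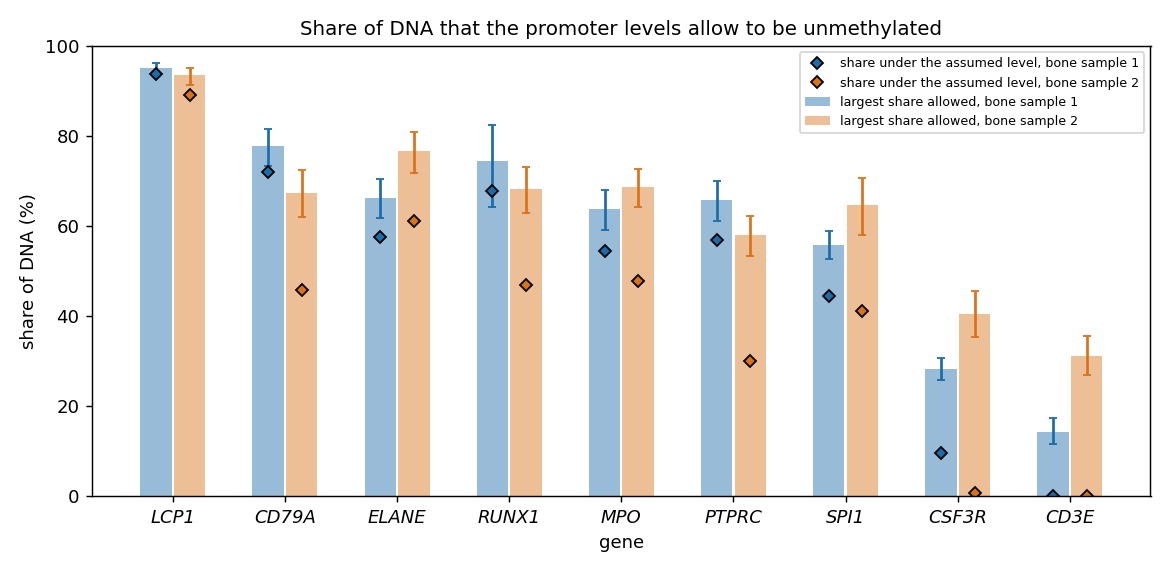
Share of DNA (%) that each promoter allows to be unmethylated, in both bone samples. Bars start at 0 and give the largest share allowed, with 95% Wilson intervals for counting error only, and diamonds give the share if other DNA has the median level of genes of the liver, skin, retina and brain. CD3E allows 14.2% and 31.0% and falls to 0% under the assumption, and LCP1 allows over 90% in both samples.

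The border of the promoter mattered for the limits. In the first kb after the start, a region chosen after the data were seen, 6 of 9 genes were under 30% in both samples. The limit there was 82.5% and 75.5% for PTPRC, 73.9% and 75.2% for SPI1, 86.7% and 81.9% for CD79A, 93.9% and 89.4% for RUNX1, and 98.8% and 97.4% for ELANE. In ELANE few calls of sample 1 lay near the start, as given above. The limit remained low for CD3E, at 20.1% and 43.7%, and for CSF3R, at 28.9% and 46.2%. MPO moved the other way in both samples, to a limit of 61.1% and 54.7%. Its share under the assumed level in sample 2 went from 47.8% to 24.6%. LCP1 did so in sample 2 only, from a limit of 93.5% to 87.5%, and was at 95.3% in sample 1. Neither region holds the window from 1 to 2 kb after the start, which was lower in both genes of the granulocyte line named here. It was at 23.7% and 30.1% in CSF3R and at 16.7% and 13.8% in MPO, so their limits depend on the region. The share under the assumed level rose by over 1.5 times in both samples for ELANE, from 57.5% to 98.4% and from 61.1% to 95.7%. It did so in sample 1 for SPI1, from 44.4% to 67.1%. In sample 2 it rose by as much for PTPRC, from 29.9% to 59.3%, RUNX1, from 47.0% to 82.4%, CD79A, from 45.8% to 69.9%, and CSF3R, from 0.753% to 10.4%, and CD3E went from 0% to 6.29%.

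Other genes of the marrow and of bone were set beside the 9 genes. Because their strand was not given, each gene was described by the end with the lower mean level, whether or not the gene starts there. CD3E thus entered by its far end, at 17.0% and 13.7%, and CD79A by its far end, at 23.3% and 22.8%, while the other 7 entered by their starts. On this scale the 9 genes had a median of 33.8% in sample 1 and 31.3% in sample 2, against 12.3% and 16.7% over all 21036 genes. A list of 20 other genes of white blood cells at large had medians of 24.9% and 26.3%, and 13 of 20 lay between 20 and 60% in each sample. Its range was wide, from MYO1F, a myosin of white blood cells, at 5.94% and 8.04%, to CYTIP at 78.2% of 55 calls and 61.1% of 90 calls. PTPN6, the phosphatase SHP-1, differed most in this list, at 54.5% and 34.5%. Genes of granulocytes were as low, with medians of 27.5% and 30.8% over 10 genes. Among them GFI1, a transcription factor of granulocyte formation, was at 1.18% and 3.75%, at an end with 119 CpG sites. MMP8, a collagenase of neutrophils, was at 61.9% and 53.2%, and AZU1, a granule protein beside ELANE, at 20.02% and 37.7%.

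Lymphocyte genes were more methylated. The median of 12 T cell genes was 70.6% in sample 1 and 52.0% in sample 2, and none of the 12 was under 20% in either sample. CD3D, another chain of the complex that holds CD3E, was at 85.5% and 59.5%, and CD8A, the co-receptor of cytotoxic T cells, was the lowest at 22.3% and 21.8%. The median of 11 B cell genes was 56.9% and 41.7%. PAX5, the factor that fixes B cell identity, was the lowest of them at 7.84% and 4.88%, at an end with 88 CpG sites. POU2AF1, a B cell coactivator, was at 80.6% of 36 calls and 68.0% of 259 calls, and BLNK, a linker below the B cell receptor, at 72.3% and 40.7%. Genes of monocytes and macrophages had medians of 52.7% and 48.2% over 14 genes, CD14 being at 8.77% and 15.9% and AIF1 at 93.2% and 67.6%.

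The other cells of marrow and bone gave medians that were mostly above those of the 9 genes. They were 55.7% and 40.6% over 14 red cell genes, 50.5% and 37.6% over 8 platelet genes, 62.7% and 49.0% over 15 bone cell genes and 60.7% and 48.6% over 8 fat cell genes. In the bone cell list SP7, the factor that bone-forming cells need, was at 2.04% and 10.2%, at an end with 109 CpG sites. OMD was at 89.4% and 78.0% and SOST, the sclerostin of osteocytes, at 80.0% and 48.2%. Of the 15 genes, 9 were over 60% in sample 1 and 2 in sample 2. Such levels cannot check the label of the tissue, as genes of other tissues were low too, such as NEFL below. Lists of the vessel lining (24.1% and 33.8% over 11 genes) and of cartilage (7.24% and 8.44% over 9 genes) were low too, so low levels were not particular to blood cell genes. The lists were not matched for the number of CpG sites at these ends. Genes of the liver, skin, retina and brain had medians of 76.8% and 52.9% over 18 genes, and 12 housekeeping genes 1.959% and 3.35%. Even so, the neuronal gene NEFL was at 3.12% and 4.80%, and the housekeeping gene B2M was at 75.1% and 38.0%, so a list's median did not hold for every gene in it.

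**Figure D5:**
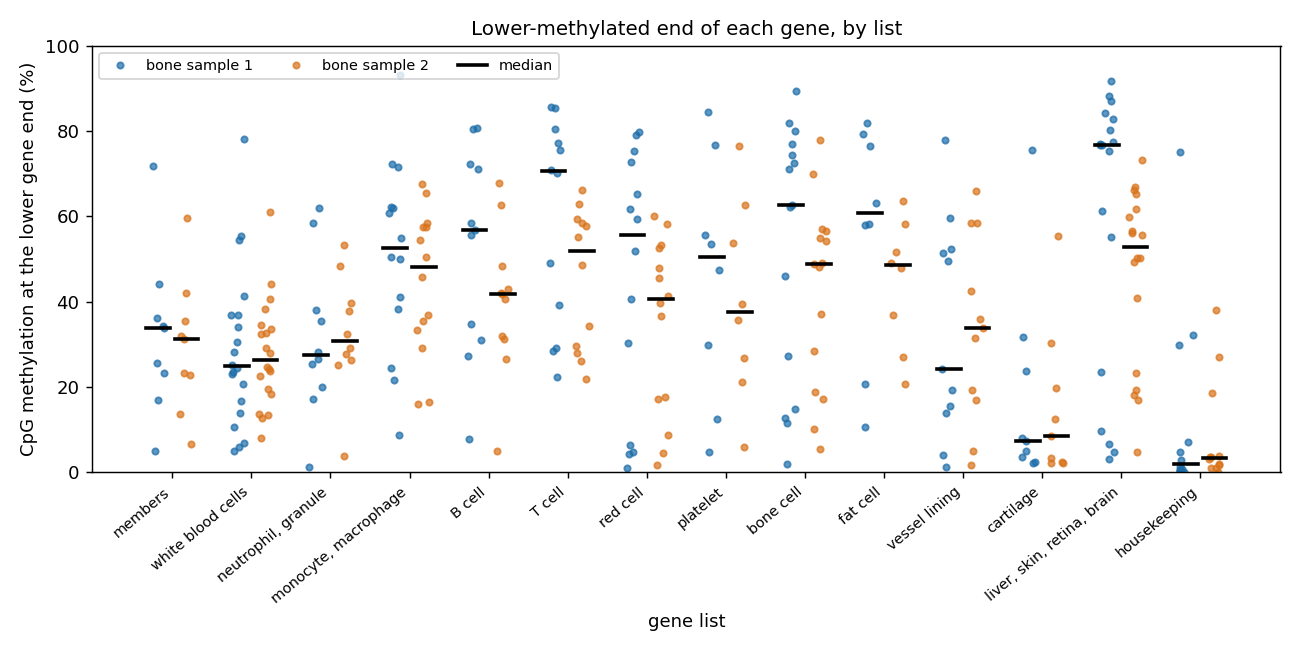
CpG methylation level (%) at the lower-methylated end of each gene, by gene list, in both bone samples. Each point is 1 gene in 1 sample, black bars are medians, and the horizontal scatter within a list carries no meaning. The list of white blood cell genes (medians 24.9% and 26.3%) and that of granulocyte genes (27.5% and 30.8%) lie under those of T cells (70.6% and 52.0%) and of bone cells (62.7% and 49.0%).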

How the data were processed

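WGBS reads of 2 bone samples had been trimmed with Trim Galore, mapped with Bismark, freed of duplicates and extracted with Bismark by the authors, who deposited counts of methylated and unmethylated calls per CpG cytosine, not normalized. The submitters' processing notes name FastQC 0.11.5, Trim Galore 0.4.5, Bowtie2 and Bismark 0.19.0 with ARS-UCD1.2, whereas the paper's methods name UMD3.1.1. Total depth was 582241763 and 440334436 calls.

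Both strands of a CpG were summed. Levels are methylated over all calls, in percent, with 95% Wilson intervals. These, and the limit after a count of 0 (3 calls of the total), cover counting error only. Genes were placed by RefSeq's ARS-UCD2.0 table, of which no coordinate is printed. It gives no strand or transcripts, so the start side of the 9 genes was inferred from the order of neighbours, and tests planned for promoters were run at both ends (1.5 kb each) of every protein-coding gene with at least 20 calls per sample. For the same reason the level assumed for other DNA was the median over both ends of the genes of other organs. Windows are 1000 bp. Promoter sequences and motifs were not analysed here.

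Fisher's exact tests were two-sided with Benjamini-Hochberg adjustment. The code was tested on simulated data. The 9 genes and all lists were chosen with earlier results of these data known. Of each other list, the genes named are the lowest, the highest and the one with the largest difference between samples, and the CpG site named is the lowest of each promoter among those with at least 10 calls per sample, the first by position where several tie. One gene that this rule names is not reported here. CTSG and FPR1 of the granulocyte list could not be placed. Other settings tried were the promoter's borders, minimum calls, unweighted means, the deepest sites, sites whose strands differ, the odds ratio, the genome-wide level for other DNA, and each sample left out. Computations ran in Python 3.11.15 with scipy 1.17.1 (tests), numpy 2.4.6 and pandas 2.3.3 (sums). Figures were drawn with matplotlib 3.10.9.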

Additional observations from a re-analysis of the deposited data

How the results depend on the processing

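The mean of both samples' median promoter level over the 9 genes, 33.4%, was 22.9% with promoters from 500 bp before to 500 bp after the start, 21.0% in the first 1000 bp after it (chosen after seeing the data) and 34.8% as an unweighted mean over sites with at least 5 calls. The largest share allowed, summed up in the same way as a median over the 9 genes, went from 66.6% to 77.1%, 79.0% and 65.2%. The median share under the assumed level of other DNA went from 51.3% to 66.0% with the shorter promoters and 68.6% in the first 1000 bp. These medians are no limit on any cell type, as the limits of single genes in sample 1 ran from 14.2% in CD3E to 95% in LCP1. The list of white blood cell genes went from 25.6% to 21.0% with the shorter promoters. Leaving out each sample gave medians of 32.6% to 34.3% for the promoters, 65.7% to 67.4% for the largest share and 45.8% to 56.8% for the assumed share. The medians were 24.9% to 26.3% for that list, 57.1% to 66.8% for gene bodies and 58.0% to 75.9% for windows. Of 41042 gene ends, 28718 differed between the samples, and 9509 with a difference of at least 20 percentage points as well. Against the odds ratio of all calls, 4 genes that were higher in sample 1, by 8.83 points in SPI1, 4.93 in MPO, 10.4 in ELANE and 12.2 in CSF3R, were relatively higher in sample 2, past the threshold in MPO only. With the shorter promoters the difference turned to -2.72 points in SPI1 and -3.13 in ELANE, and in the first 1000 bp to -1.35 in ELANE and, past no threshold in either region, to -6.38 in MPO. The causes of these shifts were not tested, beyond the deep sites of SPI1 given in the report. No paired analysis was possible because both libraries belong to 1 group. Starts of other transcripts were not run, since the annotation used lists none. Depth limits single sites, and in RUNX1 none had 10 calls in each sample.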

Other observations

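Some genes of the lists lie on the X chromosome, of which females carry an active and an inactive copy, so that a level there also holds the inactive copy and sets no limit on cell shares. At the lower of both ends, WAS, the actin regulator of white blood cells, was at 34.2% in sample 1 and 44.2% in sample 2, and BTK, the kinase of B cells, at 31.0% and 32.0%. The housekeeping genes HPRT1 and PGK1 were at 32.3% and 18.6%, and at 29.9% and 27.0%, far above the median of their list. SYN1, a gene of neurons, was at 23.5% and 17.0%, far below the median of its list. The other X-linked genes were VSIG4 at 24.5% and 45.8%, ALAS2 at 65.3% and 58.1%, GATA1 at 72.7% and 52.7%, and PHEX at 72.6% and 49.0%. These genes were named for their chromosome after their values were seen. EMCN, a surface protein of the vessel lining, was at 13.9% of 251 calls in sample 1 and 42.5% of 313 calls in sample 2, the largest difference of its list and opposite to the genome-wide one.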
